A study of Mus musculus with 23 samples.

Results

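The cell proliferation genes described here are 34 genes that dividing cells switch on to copy their DNA and to divide, brought together for the growing follicles of the mouse ovary, where most cell division of the adult ovary takes place. They were found by gene symbol in the deposited table, and all 34 were among its 24716 genes. All 34 also passed the filter on low counts, which left 20189 genes for testing.

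Ovary RNA was sequenced from wild-type female mice of 3 inbred strains that had been given 1 of 2 diets from 6 weeks of age until collection at 15 weeks, with no other treatment named. The strains were C57BL/6J, the common laboratory strain, CAST/EiJ, a strain derived from wild mice of the castaneus subspecies, and NZO/HlLtJ, a strain that becomes obese and is used as a model of type 2 diabetes. The diets held 10% fat with fiber, the control, or 44% fat with fiber, which was also high in sugar, so that fat and sugar cannot be told apart. C57BL/6J on 10% fat had 3 libraries and each of the other 5 groups had 4, which gives 23 libraries. The study asked how genotype and diet act together, and the comparisons are therefore diet within each strain, strain over both diets, and the difference of the diet effects between strains. Cycle stage was not labelled. No label ties a library to an animal of its own, and p-values therefore reflect only the spread among these libraries, which may be technical.

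In a growing follicle the granulosa cells around the oocyte divide repeatedly under follicle-stimulating hormone and estrogen, and they stop dividing when they become luteal cells after ovulation. D-type cyclins, in these cells mainly cyclin D2, start the cycle, and E-type cyclins and the factor E2F1 carry the cell into S phase. There the MCM helicase with its partners opens the DNA, and DNA polymerases copy it. Cyclin A, cyclin B and CDK1 drive mitosis, and kinetochore, checkpoint and motor proteins part the chromosomes. Whole ovary RNA holds many cell types, so fewer cells of a type and less RNA per cell cannot be told apart in these libraries.

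By role the members were 4 genes of the G1-to-S step (Ccnd2, Ccne1, Ccne2 and E2f1), 8 of the replication machinery (Mcm2 to Mcm7, Cdc45 and Pcna), 3 of nucleotide supply (Rrm1, Rrm2 and Tyms), 8 of mitotic entry (Ccna2, Cdk1, Ccnb1, Ccnb2, Plk1, Aurka, Aurkb and Foxm1), 5 of the kinetochore and checkpoint (Bub1, Bub1b, Cdc20, Cenpe and Cenpf), 4 of the spindle and cytokinesis (Kif11, Kif20a, Tpx2 and Birc5) and 2 general proliferation markers (Mki67 and Top2a). The first 15 are called G1/S and S phase members below, and the other 19 mitotic members.

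Shares of promoters with known cell cycle letters are given for the 2 classes as a description, with no test. RefSeq promoter windows on build GRCm38.p6, from 250 bases before to 50 bases after each transcript start, were matched to 26 of the 34 members, with 27 windows in all. Letters were searched on both strands. TTTGAA, the cell cycle genes homology region (CHR) of late cell cycle promoters, was found in 10 of 14 windows of mitotic members (71.4%) and in 2 of 13 windows of G1/S and S phase members (15.4%), beside 17.9% of all 32851 windows. CCAAT, the box bound by NF-Y, was found in 92.9% of mitotic and 76.9% of G1/S and S phase windows, beside 37.4% of all windows. Letters of E2F sites (TTTGGCGC, TTTCCCGC, TTTCGCGC or TTTGCCGC) were found in 30.8% of G1/S and S phase windows (4 of 13), in 7.14% of mitotic windows (1 of 14) and in 2.26% of all windows. In Mcm5 and Mcm6 a pair of E2F matches overlapped each other. A match describes these letters in this window and is not a binding site. The 6 promoters below are shown because they are of members that differed between strains (Mcm2, Tyms and Kif11) or that show the letters of their class (Mcm6, Cdk1 and Ccnb2). Each is the 180 bases before the RefSeq start, 5′ to 3′ on the gene's strand, with matches to any of the letters in capitals (a match on the other strand reads ATTGG for the CCAAT box and TTCAAA for the CHR).
Mcm2 (chr6:88898781-88898960, minus strand): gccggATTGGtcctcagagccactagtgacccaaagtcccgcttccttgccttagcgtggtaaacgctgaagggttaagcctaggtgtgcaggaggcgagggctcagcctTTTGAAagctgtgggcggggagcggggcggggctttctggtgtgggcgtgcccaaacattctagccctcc
Mcm6 (chr1:128359706-128359885, minus strand): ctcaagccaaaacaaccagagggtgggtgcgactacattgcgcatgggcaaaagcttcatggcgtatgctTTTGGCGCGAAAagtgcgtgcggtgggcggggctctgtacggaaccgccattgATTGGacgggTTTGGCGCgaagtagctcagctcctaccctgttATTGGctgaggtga
Tyms (chr5:30073626-30073805, minus strand): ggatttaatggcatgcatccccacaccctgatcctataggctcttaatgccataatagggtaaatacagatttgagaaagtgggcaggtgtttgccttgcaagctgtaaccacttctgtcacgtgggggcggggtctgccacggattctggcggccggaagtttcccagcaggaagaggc
Cdk1 (chr10:69352913-69353092, minus strand): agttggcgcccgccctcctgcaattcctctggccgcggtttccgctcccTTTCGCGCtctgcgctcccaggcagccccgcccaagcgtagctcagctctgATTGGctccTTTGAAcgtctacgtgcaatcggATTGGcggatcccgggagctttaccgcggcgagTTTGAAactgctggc
Ccnb2 (chr9:70421555-70421734, minus strand): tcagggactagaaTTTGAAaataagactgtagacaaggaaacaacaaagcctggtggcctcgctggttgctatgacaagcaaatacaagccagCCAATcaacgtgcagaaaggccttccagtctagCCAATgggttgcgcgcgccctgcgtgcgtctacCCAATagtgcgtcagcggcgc
Kif11 (chr19:37376202-37376381, plus strand): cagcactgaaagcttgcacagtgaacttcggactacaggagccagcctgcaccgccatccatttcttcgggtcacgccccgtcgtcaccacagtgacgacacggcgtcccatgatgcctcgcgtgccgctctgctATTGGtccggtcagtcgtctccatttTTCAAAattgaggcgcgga
Tyms held none of the letters in these 180 bases, Mcm2 held 1 CHR and 1 CCAAT match, and Mcm6 held 3 E2F and 2 CCAAT matches. Cdk1 held 2 CHR, 2 CCAAT and 1 E2F match, and Ccnb2 held 3 CCAAT matches and 1 CHR match. Kif11, the member that was lower in CAST/EiJ, held 1 CCAAT and 1 CHR match.

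Every member was detected in every library. Levels are given as CPM, counts per M counts of the library, from the authors' estimated counts scaled between libraries. Library totals ran from 31.94 to 45.85 M estimated counts. Per kilobase of annotated exon, the median level over the 23 libraries was highest for Pcna, the sliding clamp of DNA polymerase, at 39.86 CPM per kb. Ccnd2 followed at 32.32 and Mcm6, an MCM helicase subunit, at 24.43 CPM per kb. It was lowest for Ccne1, cyclin E1, at 1.453 CPM per kb. The lengths joined all exons of a gene in the GENCODE M21 annotation, where 29 members had the same position as in the authors' annotation. The annotation used for counting is not given, and other lengths were not tried. The granulosa cell markers Foxl2, Amh and Fshr were above 0 in every library, with medians of 39.42, 88.23 and 30.24 CPM, so the defining markers of follicle cells were present in all 23.

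The widest differences among libraries were within 1 group. In CAST/EiJ on 10% fat the coefficient of variation of CPM was wider than in each of the other 5 groups for 34 of 34 members, where 30.2% of all tested genes had their widest group. The median coefficient over members was 34.16% in that group, 17.27% in CAST/EiJ on 44% fat and between 10.04% and 11.52% in the other 4 groups. Over all genes tested the medians were closer, from 13.19% to 19.64%. CAST/EiJ 10% fat replicate 1 was the highest of the 23 libraries for 27 members (4.45% of all genes), and replicate 4 was the highest for 6 members (6.97% of all genes). Replicate 2 was the lowest of its group for 34 of 34 members (35.9% of all genes) and the lowest of all 23 libraries for 22 (10.9% of all genes).

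Mki67, the Ki-67 antigen of cycling cells, shows this spread. Its levels in CAST/EiJ on 10% fat were 377, 148.2, 181.6 and 260.9 CPM in replicates 1 to 4, with a mean of 241.9 ± 101.7 CPM (SD, n = 4). In the other 19 libraries they lay within a narrower band. They were 161.3, 140.2, 210.7 and 214.5 CPM in CAST/EiJ on 44% fat, and 176.6, 151.4 and 234.5 CPM in C57BL/6J on 10% fat. C57BL/6J on 44% fat had 192.2, 185.4, 188.3 and 218.1 CPM. Only CAST/EiJ 10% fat replicates 1 and 4 stood above the highest C57BL/6J library. In NZO/HlLtJ the levels were 196.4, 195.6, 197.4 and 167.2 CPM on 10% fat and 228.8, 214, 200.1 and 174.1 CPM on 44% fat, so all 8 lay inside the range of the C57BL/6J libraries.

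Top2a, the DNA topoisomerase that untangles sister chromatids, had 260.7, 95.92, 134.6 and 226.2 CPM in CAST/EiJ on 10% fat, with replicates 1 and 4 again high and replicate 2 low. Ccnb2, cyclin B2, had 34.18, 10.98, 17.03 and 28.78 CPM there. Rrm2, the S-phase subunit of ribonucleotide reductase, had 64.79, 19.18, 34.21 and 53.19 CPM, the widest coefficient of variation of all members in that group (47.14%). All 34 members had the same extremes in that group, with replicate 1 or 4 highest and replicate 2 lowest.

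Other libraries also stood high or low for most members, over a smaller range. A library's member score, the median over the 34 genes of the log2 ratio of its CPM to that of the median library, was 0.63, -0.49, -0.05 and 0.45 in CAST/EiJ on 10% fat. It ran from -0.34 to 0.18 in CAST/EiJ on 44% fat, from -0.16 to 0.17 in C57BL/6J and from -0.22 to 0.11 in NZO/HlLtJ over both diets. The mitotic and the G1/S and S phase members did not always share a direction. In CAST/EiJ 44% fat replicate 1 the score was -0.27 over mitotic members and 0.08 over G1/S and S phase members. In NZO/HlLtJ 44% fat replicate 1 these scores were 0.07 and -0.21, and in replicate 3 of that group 0.2 and 0.07. In C57BL/6J on 10% fat, replicate 1 was the lowest of its group for 25 members (34.2% of all genes) and replicate 3 the highest for 23 (29.2%). On 44% fat in that strain, replicate 2 was the lowest for 27 members (23.9%) and replicate 1 the highest for 24 (28.8%). In CAST/EiJ on 44% fat, replicate 2 was the lowest of its group for 31 members (25.2% of all genes) and replicate 4 the highest for 25 (21.1%). In NZO/HlLtJ, replicate 3 was the highest of its group for 27 members on 10% fat (33.4% of all genes) and for 27 members on 44% fat (30.3% of all genes). Replicate 4 of NZO/HlLtJ on 44% fat was the lowest for 25 members (24.1% of all genes). A list of 89 other cell cycle genes that were tested gave nearly the same scores, at 0.5, -0.42, -0.01 and 0.4 in CAST/EiJ on 10% fat.

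Markers of the cells around the follicle moved with some of these libraries. The score over 15 granulosa cell markers was 0.43, -1.09, 0.47 and 0.41 in CAST/EiJ on 10% fat, so replicate 2 was low in both scores, while replicate 3 was high in granulosa markers and not in the members. In C57BL/6J on 10% fat the granulosa score was -0.74, 0.55 and -0.6, and the member score was -0.16, 0 and 0.1. The summed level of the granulosa markers ranged from 3375 to 9655 CPM in C57BL/6J on 10% fat, from 3068 to 8897 in CAST/EiJ on 10% fat and from 4819 to 7315 in the other 4 groups, with none at 0 in any library. Oviduct epithelium, the lining of the tube beside the ovary, had 9 tested markers, whose score was 2.45 in C57BL/6J 44% fat replicate 1, 4.66 in CAST/EiJ 10% fat replicate 2 and at most 0.95 in the other libraries. The summed level of these 9 markers ranged from 41.05 to 5203 CPM in CAST/EiJ on 10% fat, from 36.4 to 55.39 CPM in CAST/EiJ on 44% fat and from 12.74 to 242.6 CPM in C57BL/6J on 44% fat. It lay between 11.36 and 26.78 CPM in the other 3 groups, and Dnah5 alone of the 9 was at 0 in a library. The score over 8 white adipocyte markers was 7.2 in CAST/EiJ 10% fat replicate 2, where their sum was 1153 CPM. Other groups also held high adipocyte scores, up to 5.37 in CAST/EiJ, 4.18 in C57BL/6J and 2.35 in NZO/HlLtJ, each on 44% fat. On 10% fat the highest was -1.13 in C57BL/6J and 0.34 in NZO/HlLtJ. The sum ranged from 63.97 to 903.1 CPM in the other 22 libraries, with Lep at 0 in 8 libraries, Adrb3 in 7 and Retn in 4. Luteal cell markers, 9 in all and none at 0, scored -0.91, -1.58, -0.62 and -1.42 in CAST/EiJ on 10% fat, with sums of 3894 to 6588 CPM, and -0.12 to 0.15 on 44% fat, with sums of 8390 to 9418 CPM. The part of these cell types in the members' levels was not tested.

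**Figure D1:**
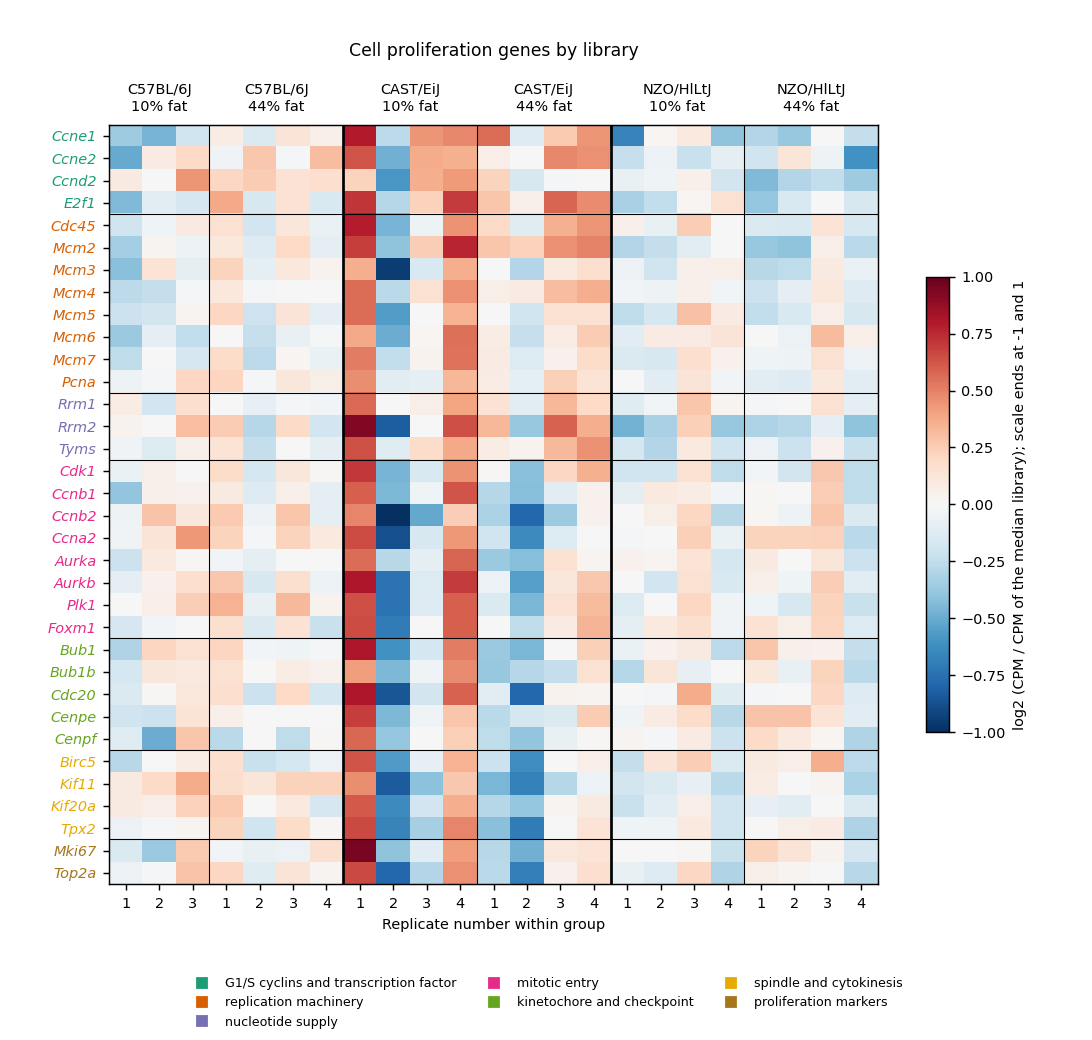
Level of each of the 34 members (lines of the map, grouped and coloured by role) in each of the 23 libraries (columns), as log2 of CPM over the CPM of the median library. CAST/EiJ 10% fat replicate 1 (27 members highest of all libraries) and replicate 2 (34 members lowest of the group) stand apart for genes of every role.

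The first comparison asked whether the diet changed these genes within a strain. For each gene all 6 groups shared a single estimate of spread, so an SE or p-value does not show the strain's own spread. No member passed the threshold (adjusted p under 0.05, Benjamini-Hochberg over all 20189 genes, edgeR's quasi-likelihood test) in C57BL/6J, CAST/EiJ or NZO/HlLtJ, or averaged over strains, and none passed with DESeq2 or with limma either. Of all genes tested, 0% were called in C57BL/6J, 0.624% in CAST/EiJ, 0% in NZO/HlLtJ and 0% averaged over strains. At an unadjusted p under 0.05 the members numbered 0 in C57BL/6J (8.83% of all genes), 2 in CAST/EiJ (13.5%), 0 in NZO/HlLtJ (3.52%) and 0 averaged over strains (5.89%).

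In C57BL/6J the members nearest to the threshold were genes of the entry into S phase. Ccne1 was at 3.026, 2.797 and 3.372 CPM on 10% fat and at 4.077, 3.494, 4.232 and 3.996 CPM on 44% fat. All 4 libraries on 44% fat were above all 3 on 10% fat, as for Mcm4 and for 3.2% of all genes. The log2 fold change (44% minus 10% fat) of Ccne1 was 0.37 ± 0.23 (SE), with an adjusted p of 0.661 in edgeR. E2f1, the activator of S-phase genes, had 9.749, 12.27 and 11.8 CPM on 10% fat and 17.23, 11.86, 14.63 and 11.91 CPM on 44% fat, which overlapped, and a log2 fold change of 0.30 ± 0.20 (SE). For Mcm4, an MCM helicase subunit, the values were 54.5, 55.27 and 64.62 CPM on 10% fat and 70.39, 64.64, 65.31 and 65.65 CPM on 44% fat, with a log2 fold change of 0.19 ± 0.14 (SE). The highest library on 10% fat and the lowest on 44% fat were nearly equal. Mcm6 had a log2 fold change of 0.15 ± 0.17 (SE), and representatives of the other roles lay closer to 0, with Mki67 at 0.06 ± 0.23, Ccnb1 at 0.07 ± 0.19, Cdk1 at 0.04 ± 0.22 and Rrm2 at -0.11 ± 0.29. All 8 genes of the replication machinery had a positive value (median 0.14), while the 19 mitotic members had a median of 0.01, and all genes tested one of 0.01. Within the 2 identifier series that hold both diets, the median over the 34 members was 0.32 in series 76 (1 library a diet) and -0.05 in series 82 (2 libraries a diet), so the direction was not shared. These series, 76, 82 and 90, are the leading digits of the library identifiers, and no label says what they mark.

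In CAST/EiJ, 33 of 34 members had a negative log2 fold change on 44% fat, with a median of -0.20 (all genes -0.02), and the 19 mitotic members had a median of -0.32 and the 15 G1/S and S phase members one of -0.06. Ccnb1, cyclin B1, the partner of CDK1 at entry into mitosis, was at 67.68, 32.68, 43.25 and 69.12 CPM on 10% fat and at 36.66, 33.17, 41.25 and 46.06 CPM on 44% fat. The 2 high libraries on 10% fat, replicates 1 and 4, set these groups apart, and the other 2 lay within the range on 44% fat or just below it. Its log2 fold change was -0.44 ± 0.18 (SE), with an unadjusted p of 0.024 and an adjusted p of 0.272 in edgeR. Aurka, the aurora kinase of centrosomes and spindle poles, had 27.4, 15.4, 17.45 and 27.94 CPM on 10% fat and 14.38, 13.84, 20.67 and 19.04 CPM on 44% fat, with the same 2 libraries high. Its log2 fold change was -0.38 ± 0.17 (SE) with an adjusted p of 0.315 in edgeR. Mki67 had -0.41 ± 0.21 (SE), Bub1b, a kinase-like protein of the spindle checkpoint, -0.32 ± 0.16, Top2a -0.27 ± 0.23, Cdk1 -0.14 ± 0.20 and Ccnd2 -0.14 ± 0.15, with adjusted p of 0.406 or more in edgeR.

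These CAST/EiJ values turned on a few libraries. Over the 3 identifier series the median over members was -0.74 in series 76, with 33 members negative and 0 positive, but 0.45 in series 82, with 34 positive, and -0.02 in series 90. The comparison in series 76 is of replicate 1 against replicate 1, and the only 10% fat library of series 82 is replicate 2, the one with oviduct RNA. The median was -0.03 without 10% fat replicate 1, -0.09 without 10% fat replicate 4, -0.09 without 44% fat replicate 2, -0.28 without 10% fat replicate 3, -0.30 without 44% fat replicate 4 and -0.41 without 10% fat replicate 2. The direction of the members on 44% fat in CAST/EiJ thus turned between the series.

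In NZO/HlLtJ the 34 members had a median log2 fold change of 0.01, with 18 positive and 16 negative. Ccnd2, cyclin D2, on which granulosa cell division depends, had the smallest p. Its levels were 289.4, 295.7, 315.4 and 267.1 CPM on 10% fat and 224.1, 248.1, 257 and 237.3 CPM on 44% fat. All 4 libraries on 44% fat were below all 4 on 10% fat, as for 1.64% of all genes. The coefficient of variation of Ccnd2 was 6.82% and 5.877% in NZO/HlLtJ on 10% and 44% fat, beside 27.62% in CAST/EiJ on 10% fat, its widest group. The log2 fold change of Ccnd2 was -0.27 ± 0.15 (SE, from the spread shared by all groups). Its unadjusted p was 0.0823 and its adjusted p was 1 in edgeR, so it did not pass. Cenpe, a kinetochore motor, came next at 0.16 ± 0.17 (SE), then Cdc45, which activates the MCM helicase, at -0.14 ± 0.19, and Mcm5 at -0.12 ± 0.17. Mki67 was at 0.11 ± 0.21, Top2a at 0.02 ± 0.23 and Rrm2 at -0.06 ± 0.27. Only series 76 holds both diets in NZO/HlLtJ (2 libraries each), and there the median over members was 0.07. Averaged over strains, Ccnd2 was at -0.14 ± 0.09 (SE) with an adjusted p of 0.893 in edgeR, the lowest of the members, before Aurka at -0.13 ± 0.10, Ccnb1 at -0.12 ± 0.11 and Cenpf, a kinetochore protein of late G2, at -0.11 ± 0.10.

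The diet effects were also compared between strains. No member passed in any of the 3 interaction terms in edgeR, and none had an unadjusted p under 0.05 (16%, 3.92% and 11.4% of all genes). Adjusted calls made up 0.614%, 0% and 0.0149% of all genes for CAST/EiJ against C57BL/6J, NZO/HlLtJ against C57BL/6J and NZO/HlLtJ against CAST/EiJ. DESeq2 and limma called no member either. The smallest p was that of Ccnb1 in CAST/EiJ against C57BL/6J, with a log2 difference of -0.51 ± 0.26 (SE) and an adjusted p of 0.354 in edgeR. For NZO/HlLtJ against CAST/EiJ, Mki67 had 0.52 ± 0.30 (SE) and an adjusted p of 0.521 in edgeR. A difference of the members' diet response between strains was thus not shown, nor was its absence.

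**Figure D2:**
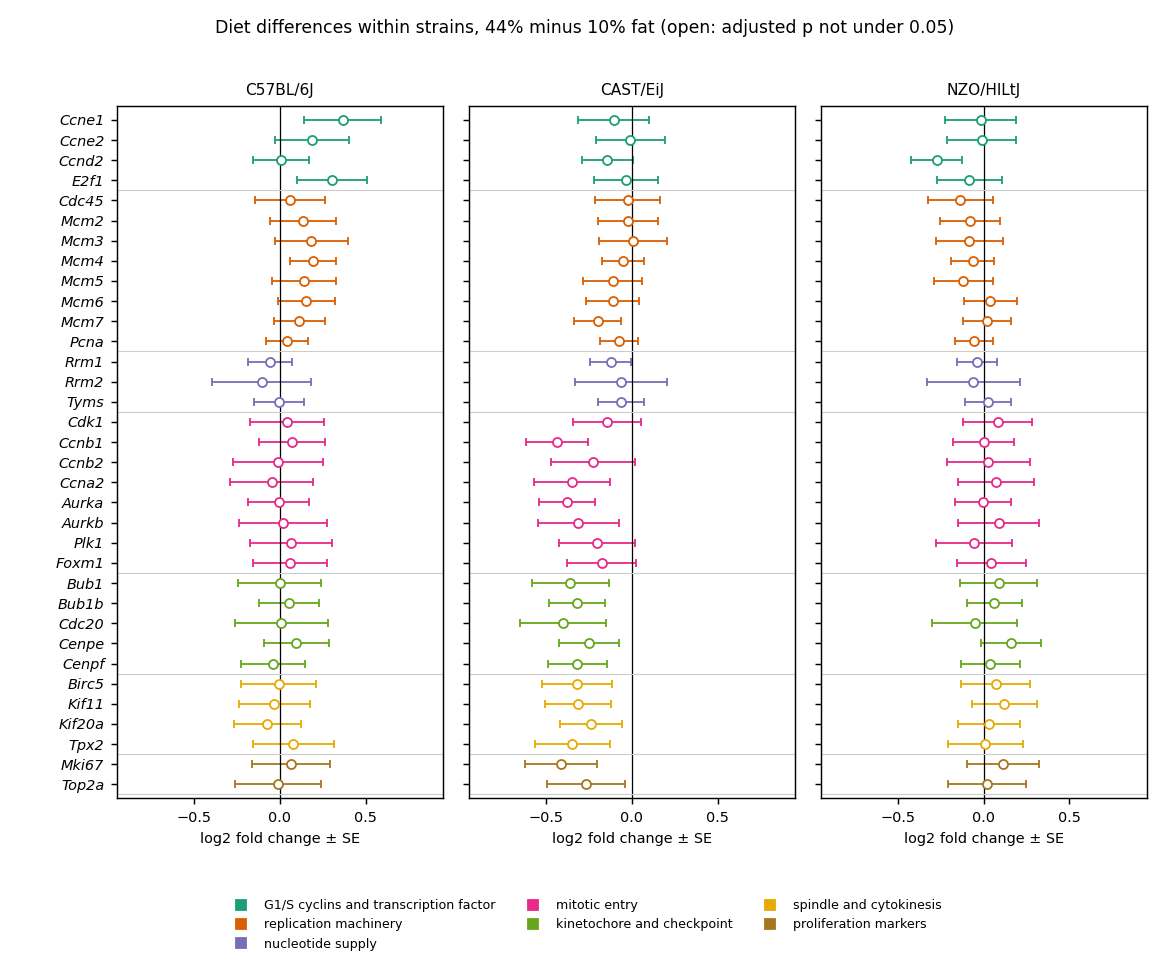
Log2 fold change (44% minus 10% fat, with SE) of each member in each strain, coloured by role. All points are open because no adjusted p was under 0.05. In CAST/EiJ 33 of 34 points lie left of 0, by a median of 0.20, and in C57BL/6J and NZO/HlLtJ the medians are 0.05 and 0.01.

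The strains were compared over both diets, with the diets weighted equally. The 3 strain comparisons share libraries, so a low or high strain enters 2 of them, and each is given with its own values. In CAST/EiJ 6 members were higher than in C57BL/6J, the cyclin gene Ccne1, E2f1, Mcm2, Mcm4, Tyms and Rrm1, where 23.2% of all genes were called higher. A single member, Kif11, was lower (23.6% of all genes). In either direction 7 of 34 members were called, beside 46.8% of all genes. Both shares were below the background. All 6 were among the 15 G1/S and S phase members, of which 9 did not pass and 14 had a positive value, and none was among the 19 mitotic members. The difference between those classes was not tested.

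Ccne1 had 2.797, 3.494 and 4.232 CPM as its lowest, median and highest of 7 libraries in C57BL/6J, and 3.233, 5.254 and 6.686 CPM over 8 libraries in CAST/EiJ. The ranges overlapped, and most CAST/EiJ libraries were above every C57BL/6J one. The mean was 3.571 ± 0.5502 CPM (SD, n = 7) against 4.959 ± 1.133 CPM (SD, n = 8), and Ccne1 rose 1.425-fold, with a log2 fold change of 0.51 ± 0.15 (SE) and an adjusted p of 0.0093 in edgeR. E2f1 had 9.749, 11.91 and 17.23 CPM (lowest, median, highest) in C57BL/6J and 10.84, 17.23 and 21.77 CPM in CAST/EiJ. Its median in CAST/EiJ equalled the highest C57BL/6J library. It rose 1.376-fold, with an adjusted p of 0.00964 in edgeR.

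Among the helicase subunits, Mcm2 had 49.61, 60.59 and 71.95 CPM (lowest, median, highest) in C57BL/6J and 47.27, 80.92 and 106 CPM in CAST/EiJ. All CAST/EiJ libraries except 10% fat replicate 2 were above every C57BL/6J library. Mcm2 was 1.339-fold higher, with a log2 fold change of 0.42 ± 0.13 (SE) and an adjusted p of 0.0116 in edgeR. Mcm4 had 54.5, 64.64 and 70.39 CPM in C57BL/6J and 54.25, 76.79 and 96.44 CPM in CAST/EiJ, and was 1.237-fold higher with an adjusted p of 0.00953 in edgeR. The other replication genes did not pass, though all had a positive value. Mcm6 was at 0.27 ± 0.11 (log2, SE) with an adjusted p of 0.0628 in edgeR, Mcm7 at 0.23 ± 0.10, Cdc45 at 0.27 ± 0.14 and Mcm5 at 0.14 ± 0.13.

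Of the nucleotide genes, Tyms, thymidylate synthase, had 23.25, 26.82 and 30.17 CPM (lowest, median, highest) in C57BL/6J and 25.18, 32.74 and 42.53 CPM in CAST/EiJ. It was 1.234-fold higher with an adjusted p of 0.0159 in edgeR. Rrm1, the large subunit of ribonucleotide reductase, had 86.84, 97.81 and 111 CPM in C57BL/6J and 91.61, 111.7 and 146.6 CPM in CAST/EiJ. It passed narrowly, at 1.162-fold with an adjusted p of 0.0474 in edgeR, and it did not pass in 20 of 30 alternative analyses, whose adjusted p ran from 0.0175 to 0.136 (the latter in edgeR without C57BL/6J 10% fat replicate 2). Ccne1, E2f1, Mcm2, Mcm4 and Tyms passed in all 30.

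Kif11, the kinesin that pushes the spindle poles apart, went the other way. It had 46.39, 49.77 and 56.47 CPM (lowest, median, highest) in C57BL/6J, 24.56, 34.32 and 60.27 CPM in CAST/EiJ and 35.04, 40.39 and 45.95 CPM in NZO/HlLtJ. In CAST/EiJ it was 1.318-fold lower than in C57BL/6J, with a log2 fold change of -0.40 ± 0.14 (SE) and an adjusted p of 0.0246 in edgeR, although replicate 1 on 10% fat, at 60.27 CPM, was the highest of all 23 libraries. The call was lost in 4 of 30 alternatives, with an adjusted p in edgeR of 0.0658 when C57BL/6J 10% fat replicate 3 was left out, 0.0541 for CAST/EiJ 44% fat replicate 2, 0.0538 for replicate 3 of CAST/EiJ on 10% fat, and 0.0589 with only the groups compared. Over all 30 alternatives its adjusted p ran from 0.00292 to 0.0658 in edgeR, DESeq2 or limma. All 8 NZO/HlLtJ libraries were below all 7 of C57BL/6J, as for 3.93% of all genes, but there the adjusted p was 0.115 in edgeR (log2 fold change -0.31 ± 0.14, SE).

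In all 27 members did not pass between CAST/EiJ and C57BL/6J, among them the mitotic members other than Kif11, whose log2 fold changes were 0.18 or less. Ccnb2 was at -0.32 ± 0.18 (log2, SE) and Ccna2, cyclin A2, at -0.21 ± 0.16. Foxm1, a transcription factor of late cell cycle genes, was at 0.18 ± 0.15, Cdk1 at 0.12 ± 0.15, Mki67 at 0.13 ± 0.16 and Top2a at -0.09 ± 0.17, with adjusted p of 0.144 or more in edgeR. Values on both sides of 0 are a description of these libraries, whose spread in CAST/EiJ is wide.

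Levels of the remaining mitotic members overlapped in all 3 strains. Plk1, the polo-like kinase of mitotic entry, was at 26.77 ± 3.16 CPM (SD, n = 7) in C57BL/6J, 26.01 ± 8.507 CPM (SD, n = 8) in CAST/EiJ and 24.03 ± 2.765 CPM (SD, n = 8) in NZO/HlLtJ. Aurkb, the kinase of the chromosomal passenger complex, had means of 21.47, 22.81 and 20.73 CPM in that order of strains, and its partner Birc5, survivin, 23.13, 24.17 and 24.95 CPM. The SD was larger in CAST/EiJ than in the other strains for each of these genes. Cdc20, the activator of the anaphase-promoting complex, was at 53.02, 16.79, 26.66 and 45.57 CPM in CAST/EiJ on 10% fat and at 28.05, 17.62, 31.02 and 30.8 CPM on 44% fat. The checkpoint kinase Bub1 was at 42.95, 16.06, 21.65 and 34.93 CPM on 10% fat and at 18.93, 17.86, 24.48 and 28.88 CPM on 44% fat. In both genes replicates 1 and 4 on 10% fat were the highest of the 8 CAST/EiJ libraries. Tpx2, which builds microtubules at the spindle, had 52.43, 50.48 and 49.97 CPM on average in C57BL/6J, CAST/EiJ and NZO/HlLtJ, Kif20a, a kinesin of cytokinesis, 30.84, 28.99 and 27.1 CPM, Cenpe 41.99, 44.61 and 45.24 CPM, and Cenpf 67.79, 72.79 and 72.64 CPM. Of the replication genes that did not pass between CAST/EiJ and C57BL/6J, Mcm3 had means of 66.24, 66.34 and 62.95 CPM and Pcna 100.8, 104.8 and 93.9 CPM, with ranges that overlapped.

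More members were called without CAST/EiJ 10% fat replicate 2, which held oviduct RNA and was also the lowest of its group for every member. The reason for the gain was not tested. Without CAST/EiJ 10% fat replicate 2, 12 members passed in place of 7, and without it and C57BL/6J 44% fat replicate 1, which are the 2 libraries with the most oviduct RNA, 12 passed as well. In the second case Cdc45, Mcm5, Mcm6, Mcm7 and Foxm1 were added as higher. Within identifier series, the 6 members that were higher in CAST/EiJ had positive values in each of 3 series. In series 82, which holds replicate 2 on 10% fat, the log2 ratio was 0.13 for Ccne1, 0.12 for Mcm2, 0.13 for Mcm4, 0.17 for Tyms, 0.11 for Rrm1 and 0.23 for E2f1. In series 76 these genes lay between 0.32 and 0.80, and in series 90, with 1 C57BL/6J library, between 0.25 and 0.64. The median over all 34 members was 0.34, -0.22 and 0.24 in series 76, 82 and 90. Kif11 was negative in each, at -0.06, -0.81 and -0.27.

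**Figure D3:**
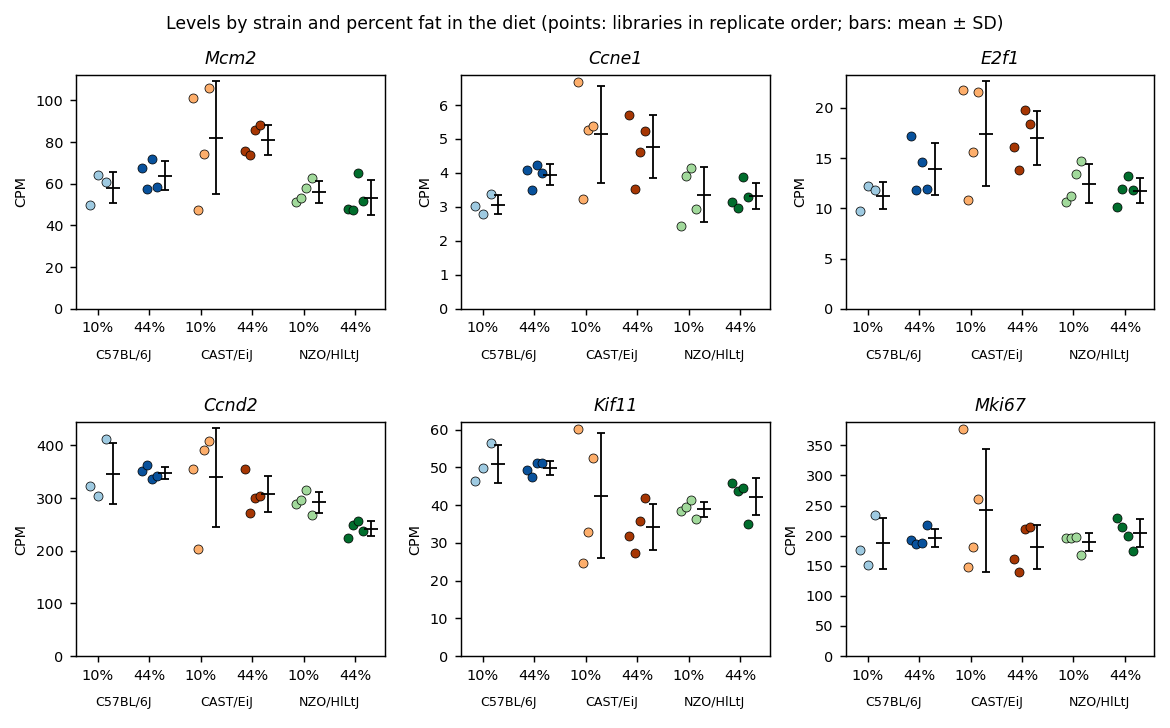
CPM of 6 members in each library (points, in replicate order) by strain and percent fat, with the mean and SD of each group beside the points. Mcm2, Ccne1 and E2f1 lie higher in most CAST/EiJ libraries, Ccnd2 is lowest in NZO/HlLtJ on 44% fat (mean 241.7 CPM), and Mki67 differs mainly by the spread in CAST/EiJ on 10% fat.

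In NZO/HlLtJ against C57BL/6J a single member passed. Ccnd2 had 304, 342.2 and 412 CPM (lowest, median, highest of 7) in C57BL/6J and 224.1, 262.1 and 315.4 CPM (of 8) in NZO/HlLtJ. A single NZO/HlLtJ library, 10% fat replicate 3, reached into the range of C57BL/6J. The mean was 347.4 ± 34.27 CPM (SD, n = 7) against 266.8 ± 31.27 CPM (SD, n = 8). Ccnd2 was 1.308-fold lower in NZO/HlLtJ, with a log2 fold change of -0.39 ± 0.11 (SE) and an adjusted p of 0.0136 in edgeR, where 12.3% of all genes were called lower, 11.6% higher and 23.9% in either direction. It passed in 29 of 30 alternatives and not without C57BL/6J 10% fat replicate 3 (adjusted p of 0.0574 in edgeR; range over the 30, 0.000205 to 0.0574). Within series the log2 ratio was -0.35, -0.28 and -0.47. After Ccnd2 and Kif11 the smallest p were those of Mcm6, at 0.22 ± 0.11 (log2, SE), and Rrm2, at -0.30 ± 0.20. Mki67 was at 0.04 ± 0.16, Top2a at -0.12 ± 0.17, Cdk1 at -0.09 ± 0.15 and Ccnb1 at 0.07 ± 0.13.

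Between NZO/HlLtJ and CAST/EiJ 8 members passed, all lower in NZO/HlLtJ, where 24.8% of all genes were called lower, 23.4% higher and 48.1% in either direction. The other 26 did not pass. All 8 were G1/S and S phase members, and all 15 of that class had a negative value (median -0.28), while the 19 mitotic members had a median of -0.02. No member had all NZO/HlLtJ libraries below all CAST/EiJ libraries, where 8.13% of all genes did. Mcm2 had 47.29, 52.46 and 65.36 CPM (lowest, median, highest) in NZO/HlLtJ, beside 47.27, 80.92 and 106 CPM in CAST/EiJ, and was 1.492-fold lower with an adjusted p of 0.000746 in edgeR. Ccne1, at 2.435, 3.216 and 4.147 CPM in NZO/HlLtJ, was 1.485-fold lower (adjusted p 0.00299 in edgeR). E2f1, at 10.12, 11.86 and 14.69 CPM, was 1.422-fold lower (adjusted p 0.00342 in edgeR). Between NZO/HlLtJ and C57BL/6J the log2 difference was -0.16 ± 0.13 (SE) for Mcm2, -0.06 ± 0.15 for Ccne1 and -0.05 ± 0.14 for E2f1, and none of these passed.

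Tyms, at 22.34, 24.08 and 29.29 CPM in NZO/HlLtJ, was 1.307-fold lower than in CAST/EiJ (adjusted p 0.00216 in edgeR), and Mcm4, at 56.32, 63.6 and 70.31 CPM, was 1.214-fold lower (adjusted p 0.0126 in edgeR). Ccne2, cyclin E2, had 8.776, 12.11 and 14.54 CPM in NZO/HlLtJ and 9.59, 17.24 and 20.74 CPM in CAST/EiJ. It was 1.346-fold lower (adjusted p 0.0169 in edgeR). These 6 genes passed in all 30 alternatives and were negative in each identifier series. Rrm2 had 24.49, 27.36 and 40.19 CPM in NZO/HlLtJ and 19.18, 43.35 and 64.79 CPM in CAST/EiJ, and Ccnd2 had 202.9, 329.4 and 408.4 CPM in CAST/EiJ. Rrm2 was 1.451-fold lower (adjusted p 0.0261 in edgeR) and Ccnd2 1.217-fold lower (adjusted p 0.032 in edgeR). Both were less stable. Rrm2 was not called in 7 of 30 alternatives (adjusted p from 0.00142 to 0.0741, the latter in edgeR without CAST/EiJ 10% fat replicate 1). Ccnd2 was not called in 9 (adjusted p from 0.000124 to 0.0828, the latter in edgeR without CAST/EiJ 10% fat replicate 4). In series 82 their log2 ratios were 0.04 and 0.17, and the median over all 34 members was -0.38, 0.23 and -0.22 in series 76, 82 and 90. Without the 2 libraries with the most oviduct RNA 13 members passed, with Cdc45, Mcm5, Mcm7, Pcna and Rrm1 added, and without CAST/EiJ 10% fat replicate 2 alone 12 passed.

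Markers of other cells also differed between the strains. The counts below stand beside 23.2% of all genes called higher and 23.6% lower in CAST/EiJ than in C57BL/6J. The shares were 11.6% and 12.3% for NZO/HlLtJ against C57BL/6J, and 23.4% and 24.8% for NZO/HlLtJ against CAST/EiJ. The summed level of 12 markers of T, B and NK cells was 2.917 to 8.962 CPM in CAST/EiJ and 6.993 to 14.55 CPM in the other strains. These markers were near the floor, with Cd2 and Nkg7 each at 0 in 1 library and Gzma in 2. Of the 12, 8 were lower in CAST/EiJ than in C57BL/6J and 10 higher in NZO/HlLtJ than in CAST/EiJ. Of the 15 granulosa markers, 1 was higher and 1 lower in CAST/EiJ than in C57BL/6J, with a median log2 fold change of 0.21, and 1 was higher and 1 lower in NZO/HlLtJ than in CAST/EiJ, with a median of -0.24. Oocyte markers, such as the zona pellucida genes, were higher in CAST/EiJ for 8 of 16 (median 0.55) and in NZO/HlLtJ for 7 of 16 (median 0.46), each against C57BL/6J. Of the 8 white adipocyte markers 7 were higher and 1 lower in CAST/EiJ than in C57BL/6J, with a median of 3.97, and of the 9 oviduct markers 3 were higher, with a median of 1.85. Between CAST/EiJ and C57BL/6J, 5 of 10 theca markers were higher and 4 lower, 0 of 9 luteal markers higher and 4 lower, 1 of 12 macrophage markers higher and 7 lower, 1 of 9 endothelial markers higher and 4 lower, and 3 of 8 surface epithelium markers higher and 2 lower. In NZO/HlLtJ against CAST/EiJ, where 8 members were lower, 6 of 8 adipocyte markers were also lower (median -4.95), 6 of 10 theca markers lower and 1 higher (median -0.48), 5 of 8 surface epithelium markers lower (median -0.74) and 4 of 9 oviduct markers lower (median -1.19). There 3 of 9 luteal markers were higher, 6 of 12 macrophage markers higher and 2 lower, 3 of 9 endothelial markers higher and 2 lower, and 2 of 16 oocyte markers higher and 1 lower. The part of these cells in the strain differences was not tested. All 7 calls between CAST/EiJ and C57BL/6J were kept without the 2 libraries with the most oviduct RNA. Of these, CAST/EiJ 10% fat replicate 2 was also the lowest of its group for 34 members (35.9% of all genes). Leaving it out is therefore not a test of the part of oviduct or other cells.

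**Figure D4:**
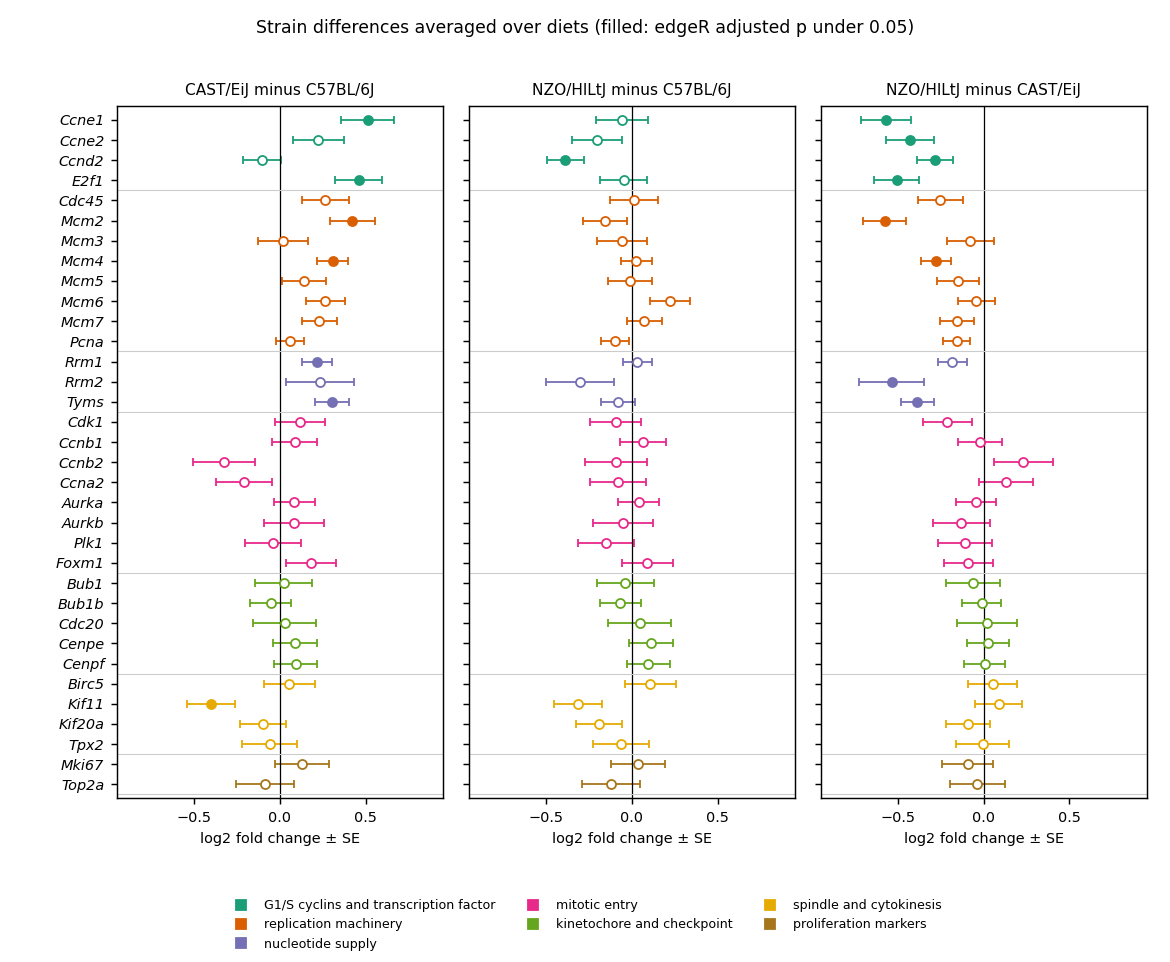
Log2 fold change with SE of each member in the 3 strain comparisons over both diets, coloured by role. Filled points passed the threshold, and they lie in the upper blocks of G1/S cyclins, replication and nucleotide genes (6 higher in CAST/EiJ than C57BL/6J, 8 lower in NZO/HlLtJ than CAST/EiJ), apart from Kif11.

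Of other genes of the cell cycle, 89 of a list of 90 were tested. In CAST/EiJ against C57BL/6J 16 were higher, 6 lower and 67 did not pass, with a median log2 fold change of 0.07, and most genes of the list were thus not called, where 46.8% of all genes were (23.2% higher, 23.6% lower). Mcm8, a helicase of recombination repair and meiosis, was at 18.73 ± 2.756 CPM (SD, n = 8) in CAST/EiJ and 11.3 ± 1.048 CPM (SD, n = 7) in C57BL/6J, 1.654-fold higher (adjusted p 2.42e-06 in edgeR). Orc1, a subunit of the origin recognition complex, was 1.553-fold higher and Chaf1b, of the chromatin assembly factor, 1.479-fold higher. Pttg1, the securin that holds back chromosome separation, was at 14.53 ± 2.983 CPM (SD, n = 8) against 25.83 ± 1.494 CPM (SD, n = 7), 1.789-fold lower (adjusted p 1.63e-06 in edgeR). Ncapd2, a condensin subunit, was 1.597-fold lower and Cenpa, the histone variant of centromeres, 1.506-fold lower.

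In NZO/HlLtJ against C57BL/6J 2 of the 89 were higher (Orc1 1.549-fold and Chaf1a 1.298-fold) and 5 lower, among them Pttg1 (1.557-fold), Ncapd2 (1.449-fold) and Pkmyt1 (1.355-fold), a kinase that inhibits CDK1, and 82 did not pass, where 23.9% of all genes were called. Pttg1 and Ncapd2 were thus lower in both strains than in C57BL/6J, whose libraries both comparisons share. In NZO/HlLtJ against CAST/EiJ 6 were higher, 15 lower and 68 did not pass, where 48.1% of all genes were called. Kif15, a spindle kinesin, was 1.617-fold higher, Cenpa 1.445-fold and Spc24, of the kinetochore, 1.405-fold. Ccnd1, cyclin D1, was 2.134-fold lower, at 13.67 ± 1.924 CPM (SD, n = 8) against 30.07 ± 21.18 CPM (SD, n = 8). Over all libraries Ccnd1 ran from 11.03 to 81.09 CPM with a median of 17.55 CPM, and how far its fold turned on single libraries was not tested. Ndc80, of the kinetochore, was 1.58-fold lower and Mcm8 1.555-fold lower. No gene of the list passed in a diet comparison or interaction term in edgeR. The list's median log2 fold change with diet in CAST/EiJ was -0.18 (all genes -0.02), beside -0.20 for the members, and its median difference of the diet effect between CAST/EiJ and C57BL/6J was -0.24 (all genes -0.04).

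Of 18 cell cycle inhibitors, 2 were higher and 7 lower in CAST/EiJ than in C57BL/6J and 9 did not pass, with a median log2 fold change of -0.21. In either direction this share called is near the 46.8% of all genes. By direction, 23.2% of all genes were called higher and 23.6% lower, beside the 2 and 7 of 18 inhibitors. Cdkn1c, the inhibitor p57, was at 15.72 ± 3.79 CPM (SD, n = 8) against 6.592 ± 1.729 CPM (SD, n = 7), 2.453-fold higher (adjusted p 3.81e-06 in edgeR), and Rb1, the retinoblastoma protein that holds E2F, was 1.252-fold higher. Cdkn1a, the inhibitor p21, was at 11.4 ± 5.662 CPM (SD, n = 8) against 38.36 ± 19.17 CPM (SD, n = 7), 3.418-fold lower (adjusted p 0.000157 in edgeR). Cdkn2b, a CDK4 inhibitor, was 5.187-fold lower. Cdkn2a was 2.041-fold lower, at means below 1 CPM.

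In NZO/HlLtJ against C57BL/6J 1 inhibitor was higher, Cdkn1c at 1.702-fold, 6 were lower and 11 did not pass. Of all genes 11.6% were called higher there, 12.3% lower and 23.9% in either direction. Cdkn2c, the CDK4 and CDK6 inhibitor p18, was at 10.43 ± 2.147 CPM (SD, n = 8) against 26.29 ± 3.031 CPM (SD, n = 7), 2.543-fold lower (adjusted p 1.62e-08 in edgeR). Cdkn2b was 4.652-fold lower and Cdkn2a 2.486-fold lower. In NZO/HlLtJ against CAST/EiJ 2 were higher, Btg2 at 1.835-fold and Cdkn1b, the inhibitor p27, at 1.699-fold, and 3 lower, Cdkn2c at 2.565-fold, Cdkn1c at 1.441-fold and Rb1 at 1.182-fold. The other 13 did not pass, where 23.4% of all genes were called higher, 24.8% lower and 48.1% in either direction. No inhibitor passed in a diet comparison in edgeR.

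Some members share sequence with other genes, which could have split or added counts. The transcripts of 8 members (Ccnb1, Cdc20, Kif11, Mcm4, Mcm7, Pcna, Plk1 and Tyms) matched a pseudogene at 90% identity or more over at least 20% of their length, so that their values are uncertain to that extent. For Kif11 the matching pseudogene had 0.3595, 0.1999 and 0.2997 CPM on average in C57BL/6J, CAST/EiJ and NZO/HlLtJ, beside Kif11 means of 50.24, 38.39 and 40.57 CPM. In the same order the copy of Plk1 had 1.577, 2.823 and 2.158 CPM, beside Plk1 means of 26.77, 26.01 and 24.03 CPM. The copy Ccnb1-ps had 0.004025, 0.3457 and 0 CPM, beside Ccnb1 means of 43.21, 46.23 and 45.04 CPM. Levels of the other copies, among them further copies of Ccnb1, are not given here. The matching pseudogenes of Mcm4, Mcm7 and Tyms were not among the genes of the deposited table, so their levels could not be set beside those members. Exons of 10 members overlap another annotated gene, by 29.3% of the exon length for Kif20a with Cdc23, 17.4% for Ccne2 with Ints8, 12.5% for Ccna2 with Exosc9 and 7.25% or less for the others. Whether counting used strand is not given in the sources used here, so reads of these overlaps cannot be told apart. Whether CAST/EiJ reads were aligned to a CAST/EiJ genome is likewise not given, and its part in the CAST/EiJ differences was not tested.

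Positions of the members the results turn on are those of the authors' annotation on GRCm38. Ccne1 is at chr7:38097984-38107534, E2f1 at chr2:154559407-154569892, Mcm2 at chr6:88883474-88898780, Mcm4 at chr16:15623897-15637400 and Tyms at chr5:30058202-30073617, all on the minus strand. Ccnd2 is at chr6:127125162-127152193 on the minus strand and Kif11 at chr19:37376403-37421859 on the plus strand. The values are the authors' estimated counts per gene, and how reads were assigned to genes is not given in the sources used here.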

How the data were processed

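Whole ovary RNA of 23 libraries was sequenced, and the authors deposited estimated counts (expected counts) per gene, which were not normalized. Their second deposited table holds variance-stabilised log2 values. The build GRCm38 and DESeq2 are named in the submitters' processing notes, and the aligner, counter, annotation release and the genome used for each strain are not given in the sources used here. In the deposited counts 27.43% of the values were not whole, so they were rounded. Library totals were 31.94 to 45.85 M, and no column of values was left unused.

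The 24716 genes were filtered by group (minimum count 10, minimum total 15), scaled by TMM and fitted with edgeR 4.0.16 in R 4.3.3 (robust quasi-likelihood, 6 group means over 23 libraries). P-values were adjusted over 20189 genes by Benjamini-Hochberg, with a threshold of 0.05. Fold changes came from this fit, with SE as the absolute log2 fold change over the root of F. CPM used TMM-scaled totals, and scores used a prior count of 2. The 33 pairs of libraries of 1 group differed by 11.55 to 203.5 in chi-square per degree of freedom, more than counting error, so none was counted as a deposit of the same library. Separate libraries of the same RNA are not told apart by this check. The script was tested on simulated data.

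Alternatives were DESeq2 1.42.0, a fit of only the groups compared, identifier series as a term, no count filter, relative log expression scaling, limma 3.58.1 on the deposited log2 values, both libraries with the most oviduct RNA left out, and each library left out in turn. Members were named by role: those past the threshold, otherwise the 4 with the smallest p and Mki67, Top2a, Ccnd2, Cdk1, Ccnb1, Mcm5 and Rrm2 as representatives, with up to 3 genes a direction from the lists of other cell cycle genes and inhibitors. The members and all lists were chosen with earlier results of these data known. Promoter windows came from RefSeq on GRCm38.p6, and exon overlaps and copies from the GENCODE M21 annotation and transcripts of the reference.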

Additional observations from a re-analysis of the deposited data

Results flagged for a closer look

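Of 170 sets of 4 libraries (1 member in 1 group), 8 held a library far from the other 3, where chance flags about 1 in 20 sets.

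In C57BL/6J on 44% fat, replicate 1, which also had oviduct RNA, stood above the others for the checkpoint kinase Bub1, at 28.46 CPM against 23.82 to 24.1 CPM, and for the kinetochore motor Cenpe, at 44.4 CPM against 42.63 to 42.88 CPM.

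In NZO/HlLtJ on 10% fat, replicate 4 was low for Mki67, at 167.2 CPM against 195.6 to 197.4 CPM, and replicate 3 was high for Cdk1, at 42.81 CPM against 32.28 to 33.58 CPM.

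In NZO/HlLtJ on 44% fat, replicate 4 was low for Ccna2, at 41.09 CPM against 57.83 to 58.39 CPM. Replicate 3 of that group was high for 3 replication genes: Cdc45 at 13.47 CPM against 11.01 to 11.12 CPM, Mcm7 at 105.4 CPM against 91.31 to 92.36 CPM, and Pcna at 103.2 CPM against 87.55 to 88.96 CPM.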

How the results depend on the processing

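No called member reversed its direction under the 30 alternatives, and the diet comparisons and interaction terms called 0 members under each of them. Medians over the members that lay near 0 did change sign when 1 library was left out: they ran from -0.01 to 0.1 for diet in C57BL/6J, from -0.05 to 0.07 for diet in NZO/HlLtJ, from -0.13 to 0.01 for diet averaged over strains and from -0.08 to 0.06 for the difference of the diet effects of NZO/HlLtJ and C57BL/6J. Between CAST/EiJ and C57BL/6J, 7 members were called, 12 without both oviduct-rich libraries (CAST/EiJ 10% fat replicate 2 and C57BL/6J 44% fat replicate 1), and 6 to 12 when 1 library was left out. Between NZO/HlLtJ and C57BL/6J, 1 member was called, 3 with only the groups compared (Ccnd2, Mcm6 and Kif11), and 0 to 2 when 1 library was left out (0 without C57BL/6J 10% fat replicate 3, 2 without CAST/EiJ 10% fat replicate 2). Between NZO/HlLtJ and CAST/EiJ, 8 were called, 13 without both oviduct-rich libraries, and 6 to 12 when 1 library was left out. The cause of these moves was not tested. DESeq2 and relative log expression scaling called 7 members between CAST/EiJ and C57BL/6J and 8 between NZO/HlLtJ and CAST/EiJ, as edgeR did. No paired analysis was possible because the labels give no replicate numbers, and the numbers used here follow the order of deposit. With 4 libraries a group, the SE of the log2 fold change of Mki67 with diet was 0.21 in CAST/EiJ, from a spread shared by all groups. Its log2 fold change of -0.41 did not pass, and the smallest detectable change was not estimated. Depth did not keep any member from testing, since all 34 passed the count filter.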
